A study of Mus musculus with 8 samples.

Results

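The genes described here are 36 genes of lipogenesis and lipid droplets, measured in mouse liver among 26682 loci. They were listed by name, with earlier results of these data known, and each was matched by its symbol in the authors' tables. Where a symbol had several loci the one with the highest FPKM (fragments per kilobase of transcript, scaled to the mapped fragments) was used. The list holds 14 genes of fatty acid synthesis, 3 transcription factors, 7 genes of triglyceride synthesis, 7 of lipid droplet proteins, 3 of lipolysis and 2 of fatty acid uptake. All 36 members were found in the tables. All were tested for the effect of IUB288 in WT mice, and 35 were tested in each of the other deposited comparisons.

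The 8 mice, all of C57Bl/6J background, formed 4 groups of 2, namely WT given vehicle, WT given IUB288, KO given vehicle and KO given IUB288. IUB288 activates the glucagon receptor. The KO mice derive from a line with a floxed Fxr gene (Nr1h4), which encodes the farnesoid X receptor, a bile acid receptor of liver and gut. The promoter and cell type of the recombinase, the exon removed, the age of the mice and the dose and duration of IUB288 are not given in the sources used here. All mice had fasted for 2 h. The labels name a high-fat and a chow diet without assigning either to a mouse, so diet and group cannot be told apart.

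Each group has 1 pooled FPKM value per table, with no value per mouse and unknown depth, so the mice of a group cannot be seen separately. Values after ± are the standard errors that the authors' test statistics imply, with 2 mice per group. A gene is called changed where the authors' q-value is under 0.05. Nr1h4 itself was at 49.3 FPKM in WT vehicle, 40.3 in WT IUB288, 36.8 in KO vehicle and 27.1 in KO IUB288. An FPKM summed over all exons cannot reveal the loss of some of them, so these levels do not check the labels. Of 8 hepatocyte markers 1 fell and 1 rose in each genotype. Apoa1 went from 12882 to 3714 FPKM in WT and from 10234 to 3910 in KO, and Tat from 544 to 1291 and from 279 to 1263; with normal p-values Tat in KO alone kept its call. Ttr was between 4603 and 5428 FPKM in all groups, whereas Alb, at 9581 FPKM in WT IUB288 and 9284 in KO IUB288, was listed at 0 under vehicle in both genotypes, where the authors give no test. In liver RNA, fewer cells of a type and less RNA per cell cannot be told apart.

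In lipogenesis, the cytosol turns citrate into acetyl-CoA and then into malonyl-CoA, which fatty acid synthase extends to palmitate; elongases and desaturases then modify the chain. Acyltransferases, the lipins and the diacylglycerol acyltransferases join fatty acids to glycerol phosphate to give triglyceride, which is stored in droplets coated by perilipins and CIDE proteins. In liver the pathway is driven by insulin through SREBP-1c and by glucose through ChREBP, and glucagon, the hormone of fasting, opposes it.

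The promoters of 4 members are shown. They were picked by hand from the members called in both genotypes, of which 7 fell and 2 rose. Thrsp and Pnpla3 are among those that fell, and Plin5 and G0s2 are those that rose. The sequences are RefSeq's for GRCm38.p6, the build called mm10 in the authors' notes, and hold the 150 bases before the transcription start, 5′ to 3′. Capitals mark the palindrome TGACGTCA, the cAMP response element to which CREB binds.
Thrsp, chr7:97417551-97417700, minus strand: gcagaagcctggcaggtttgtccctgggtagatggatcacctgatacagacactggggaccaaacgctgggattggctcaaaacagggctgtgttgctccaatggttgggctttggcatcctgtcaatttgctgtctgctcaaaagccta
Pnpla3, chr15:84167666-84167815, plus strand: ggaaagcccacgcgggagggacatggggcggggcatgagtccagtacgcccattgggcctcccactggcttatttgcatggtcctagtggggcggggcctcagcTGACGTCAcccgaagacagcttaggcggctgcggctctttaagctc
Plin5, chr17:56117549-56117698, minus strand: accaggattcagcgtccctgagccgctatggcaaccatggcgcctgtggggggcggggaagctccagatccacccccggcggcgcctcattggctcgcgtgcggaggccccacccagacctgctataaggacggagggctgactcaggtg
G0s2, chr1:193273189-193273338, minus strand: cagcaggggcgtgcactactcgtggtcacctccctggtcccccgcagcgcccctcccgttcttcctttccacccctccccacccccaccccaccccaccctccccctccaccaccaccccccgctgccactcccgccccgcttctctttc
The palindrome begins 46 bases before the start of Pnpla3 and is not in the other 3 stretches. Over the full windows of 300 bases, from 250 before to 50 after a start, it occurred in 2 of the 29 members with a window, Pnpla3 and Elovl5, and in 2.03% of the 27025 genes with one. In Elovl5 it begins at base 4 of the transcript.

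On both strands the strict sterol regulatory element TCACNCCAC was found in Mlxipl alone among the 29 members, against 1.44% of all genes, and the looser TCACNNCAC, which contains it, in Mlxipl and Cidec, against 4.37%. The E-box CACGTG was found in Elovl5, Lpin2, Mlxipl, Plin2 and Slc25a1, against 8.09% of all genes, and TATAAA in Acacb and Pparg, against 15.7%. Exact copies of the carbohydrate response element (a pair of E-boxes spaced by 5 bases) were in no member window and in 0% of all genes. Exact direct repeats of AGGTCA read by LXR (4 bases apart) and PPAR (1 base apart) were in no member window either, and in 0.0148% and 0.0481% of all genes. Copies this rare would be missing from almost any 29 genes, so their absence says nothing of looser sites. All matches given here describe letters in a window and say nothing of binding.

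**Figure D1:**
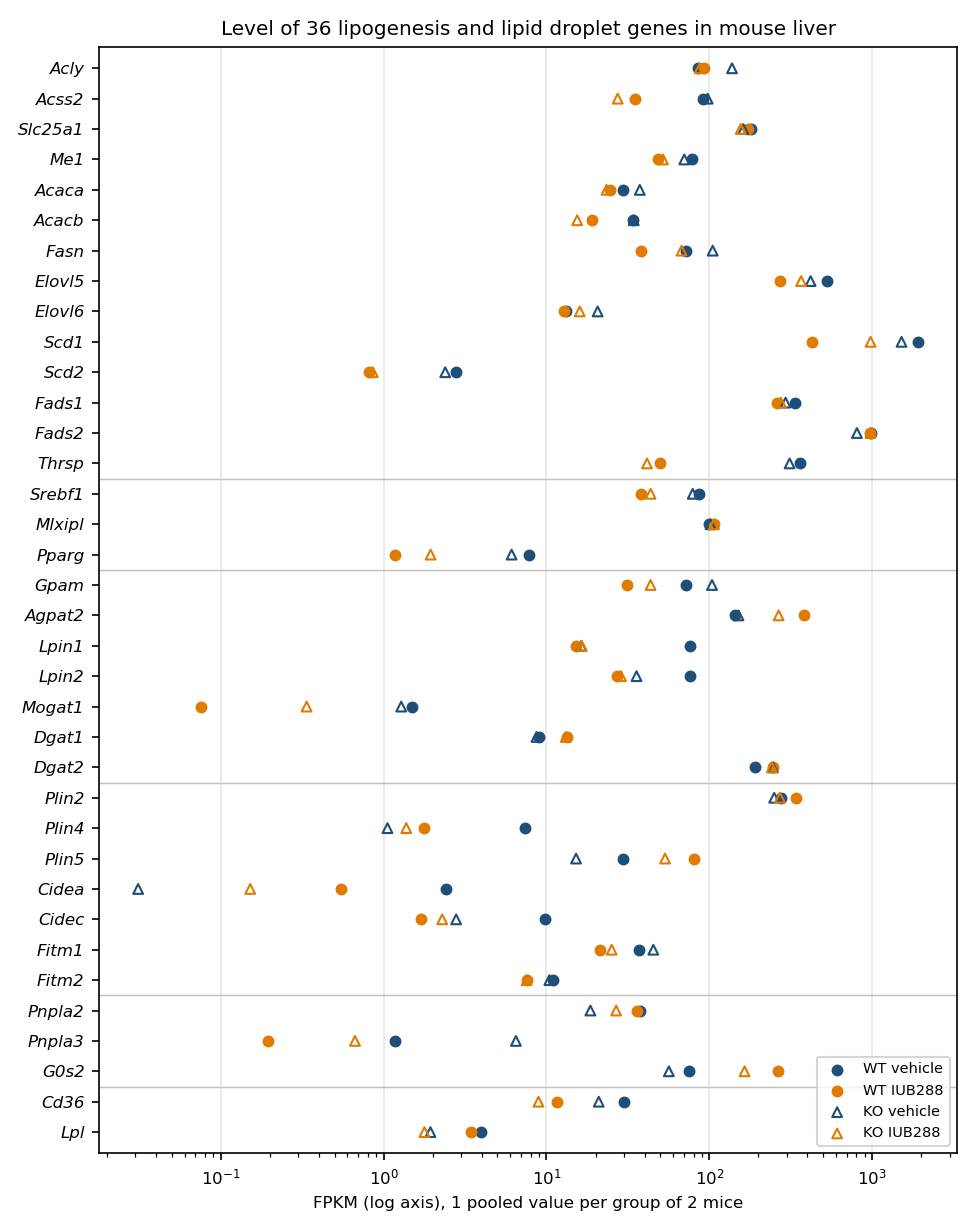
FPKM of the 36 genes on a log axis, with 1 pooled value for each group of 2 mice (circles WT, triangles KO, blue vehicle, orange IUB288) and grey lines between the functional groups. Scd1 is the most abundant at 1909 FPKM in WT vehicle, and Thrsp, Acss2 and Pparg have both orange symbols left of both blue ones.

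IUB288 lowered 12 and raised 3 of the 36 members in WT mice, and lowered 9 and raised 2 of the 35 tested in KO mice. Over all loci tested the authors called 3.4% lower and 3.96% higher in WT, and 2.37% lower and 3.13% higher in KO. Since the list was drawn up with earlier results known, its counts are a description and carry no test. The median log2 fold change of the members was -0.82 in WT and -0.36 in KO, where over all loci tested it was 0.03 and 0.00. In both genotypes Acss2, Thrsp, Srebf1, Pparg, Gpam, Pnpla3 and Cd36 fell and Plin5 and G0s2 rose. Passing in WT and not in KO were Scd1, Scd2, Lpin1, Lpin2 and Cidec, which fell, and Agpat2, which rose; Acacb and Fitm1 fell in KO and did not pass in WT. Of the 35 members tested in both, 29 had the same sign in WT and KO, and none was called in opposite directions. With normal p-values computed from the same test statistics, the lower calls numbered 7 in WT, without Acss2, Scd1, Scd2, Srebf1 and Gpam, and 4 in KO, without Acacb, Srebf1, Pparg, Gpam and Fitm1. Among the genes that rose, Agpat2 in WT also lost its call that way.

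**Figure D2:**
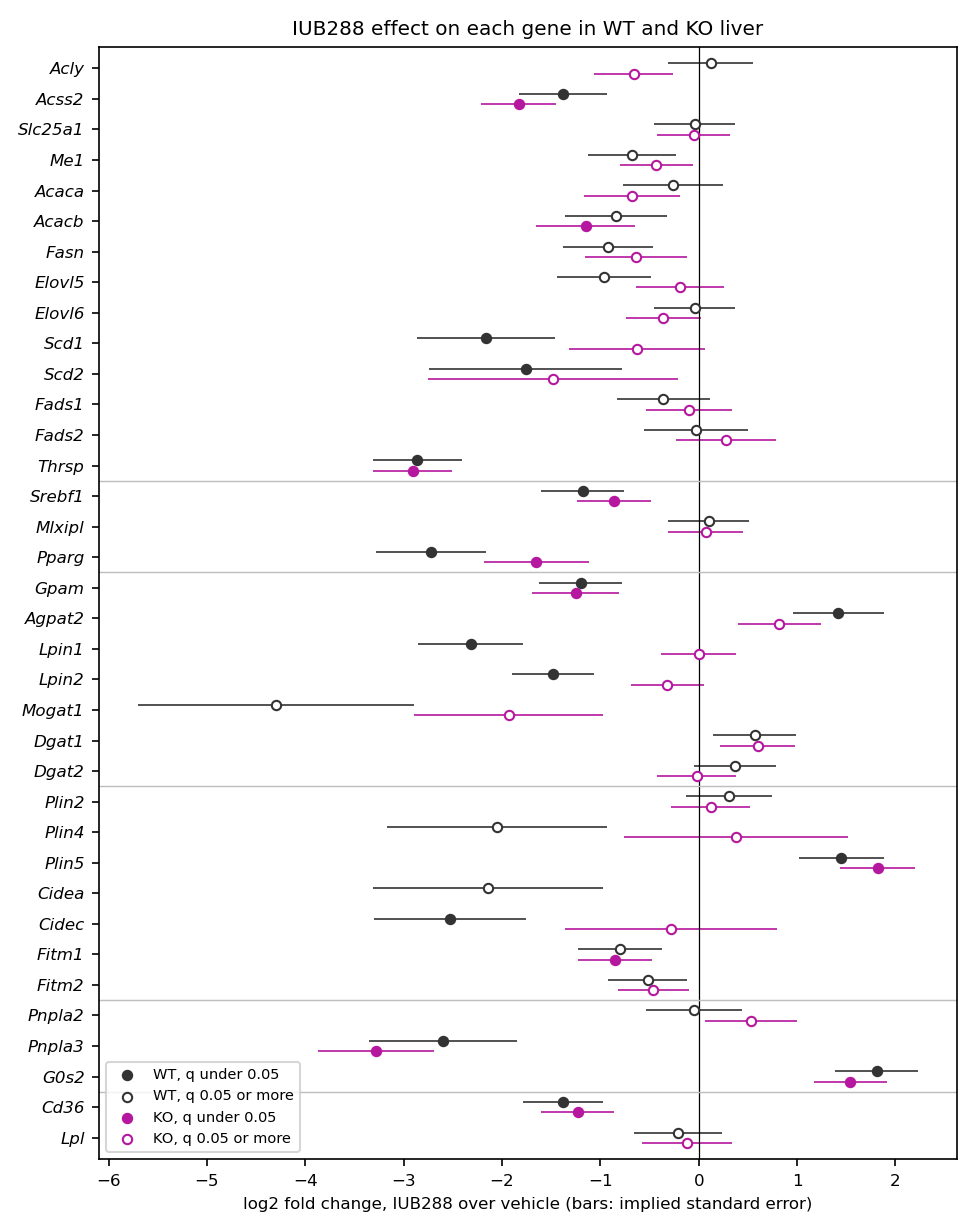
Log2 fold change of IUB288 over vehicle for each gene in WT (black) and KO (magenta); bars are implied standard errors, and filled symbols passed q under 0.05. Thrsp lies at -2.86 in WT and -2.91 in KO, whereas Lpin1 lies at -2.32 in WT and 0.00 in KO.

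Of the 14 genes of fatty acid synthesis, 4 fell in WT and 3 in KO, and none rose. The shares called lower over all loci tested were 3.4% in WT and 2.37% in KO. With normal p-values 1 of the 14 was called in WT (Thrsp) and 2 in KO (Thrsp and Acss2). Thrsp, on mm10 chromosome 7 from 97412934 to 97420907, encodes a small protein that promotes lipogenesis. Its level was 362 FPKM in WT vehicle, 50.003 in WT IUB288, 311 in KO vehicle and 41.4 in KO IUB288. Both vehicle groups were far above both IUB288 groups. The log2 fold change in the authors' deposited tables was -2.86 ± 0.45 in WT (q = 0.00163) and -2.91 ± 0.40 in KO (q = 0.00189).

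Acss2, the cytosolic enzyme that makes acetyl-CoA from acetate, went from 91.2 to 34.9 FPKM in WT and from 97.6 to 27.4 in KO. The authors' deposited tables give log2 fold changes of -1.38 ± 0.45 (q = 0.00163) and -1.83 ± 0.38 (q = 0.00189). Acacb, the acetyl-CoA carboxylase at mitochondria whose product restrains fatty acid oxidation, was at 33.9 and 18.9 FPKM in WT vehicle and IUB288, and at 34.3 and 15.4 in KO. It passed in KO (-1.15 ± 0.50, q = 0.0205) and not in WT (-0.84 ± 0.52, q = 0.188) in the authors' deposited tables. The levels under vehicle were nearly equal, and the IUB288 groups lay below them in both genotypes.

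Scd1 (mm10 chromosome 19, from 44394368 to 44407845), the desaturase that makes oleate and the most abundant member, was at 1909 FPKM in WT vehicle, 427 in WT IUB288, 1512 in KO vehicle and 976 in KO IUB288. WT IUB288 was the lowest of the groups. In the authors' deposited tables the log2 fold change was -2.16 ± 0.70 in WT (q = 0.00301) and -0.63 ± 0.69 in KO (q = 0.644). Its close paralog Scd2 was at 2.78, 0.819, 2.39 and 0.859 FPKM in the same order, with -1.76 ± 0.98 in WT (q = 0.0164) and -1.48 ± 1.27 in KO (q = 0.144) in the authors' deposited tables. Reads of such close copies can be divided between them, so the Scd2 value is uncertain.

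The central enzymes of the pathway did not pass in either genotype. Fasn, the fatty acid synthase, was at 71.9 FPKM in WT vehicle, 38.0 in WT IUB288, 105 in KO vehicle and 67.5 in KO IUB288, with log2 fold changes of -0.92 ± 0.46 (q = 0.0717) and -0.64 ± 0.52 (q = 0.448) in the authors' deposited tables. Acaca, the cytosolic acetyl-CoA carboxylase, was at 29.5, 24.7, 37.4 and 23.4 FPKM, and Acly, which splits citrate into acetyl-CoA, at 85.6, 93.2, 138 and 87.2. The elongase gene Elovl5 was at 528, 271, 418 and 366 FPKM (q = 0.0626 in WT in the authors' deposited table). The other members not called, namely Me1, Slc25a1, Elovl6, Fads1 and Fads2, had log2 fold changes between -0.68 (Me1) and -0.03 (Fads2) in WT and between -0.43 (Me1) and 0.28 (Fads2) in KO in the authors' deposited tables. They encode malic enzyme, the mitochondrial citrate carrier, an elongase and both front-end desaturases. The Fads2 locus also covers Fads3, so its level may include reads of that gene.

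Among the transcription factors, Srebf1 and Pparg fell in both genotypes and Mlxipl was called in neither. Srebf1 encodes SREBP-1, the insulin-responsive activator of lipogenic genes. Its locus also covers Rai1, so its level may include reads of that gene. The level was 85.8 FPKM in WT vehicle, 37.9 in WT IUB288, 79.1 in KO vehicle and 43.6 in KO IUB288. Both IUB288 groups were below both vehicle groups, with log2 fold changes of -1.18 ± 0.42 (q = 0.00301) in WT and -0.86 ± 0.38 (q = 0.0348) in KO in the authors' deposited tables. Pparg, which encodes the fat cell regulator PPARγ, expressed at a low level in normal liver, was at 7.76, 1.18, 6.11 and 1.94 FPKM in that order. The authors' deposited tables give -2.72 ± 0.56 (q = 0.00163) in WT and -1.65 ± 0.53 (q = 0.00189) in KO. With normal p-values Srebf1 lost its call in WT (q = 0.137) and in KO (q = 0.464). Pparg kept its call in WT and lost that in KO (q = 0.0762). Mlxipl, which encodes the glucose-responsive factor ChREBP, was between 98.95 and 107 FPKM in all 4 groups.

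Triglyceride synthesis genes went both ways, with 3 of 7 lower and 1 higher in WT, and 1 lower in KO. Of all loci tested, 3.4% were called lower and 3.96% higher in WT, and 2.37% lower in KO. With normal p-values 2 of the 7 were called in WT (Lpin1 and Lpin2) and 0 in KO. Gpam, the mitochondrial acyltransferase of the initial step, was at 72.0 FPKM in WT vehicle, 31.4 in WT IUB288, 104 in KO vehicle and 43.5 in KO IUB288. It fell by 1.20 ± 0.42 on the log2 scale in WT (q = 0.00163) and by 1.25 ± 0.44 in KO (q = 0.00346) in the authors' deposited tables. Agpat2, which acts next and makes phosphatidate, was at 143, 381, 151 and 266 FPKM. It rose in WT (1.42 ± 0.46, q = 0.00301) and was at 0.82 ± 0.42 in KO (q = 0.093) in the authors' deposited tables.

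The lipin genes encode phosphatidate phosphatases, which make diacylglycerol, and lipin 1 also acts as a transcriptional coactivator. Lpin1, on mm10 chromosome 12 from 16535669 to 16589870, was at 76.1 FPKM in WT vehicle and at 15.2 in WT IUB288, 16.4 in KO vehicle and 16.4 in KO IUB288. WT vehicle thus stood apart from the other three groups, which were close together. In the authors' deposited tables the log2 fold change was -2.32 ± 0.53 in WT (q = 0.00163) and 0.00 ± 0.38 in KO (q = 0.997). Lpin2 was also highest in WT vehicle, at 75.9 FPKM in WT vehicle and 27.2, 35.7 and 28.7 in the others. It fell by 1.48 ± 0.42 on the log2 scale in WT (q = 0.00163) and was at -0.32 ± 0.37 in KO (q = 0.675) in the authors' deposited tables.

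The last steps showed no call. Dgat1 and Dgat2, which encode the acyltransferases that complete triglyceride, were at 8.97, 13.3, 8.68 and 13.1 FPKM and at 192, 247, 245 and 242 FPKM in WT vehicle, WT IUB288, KO vehicle and KO IUB288. Mogat1, a monoacylglycerol acyltransferase, was at 1.48, 0.0754, 1.28 and 0.337 FPKM. Its fold change in WT (-4.30 ± 1.40) was the largest of all members in the authors' deposited table but did not pass (q = 0.142), at levels near or below 1 FPKM.

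Droplet protein genes moved in both directions. Plin5, the perilipin of oxidative tissues that links droplets with mitochondria, was at 29.5 FPKM in WT vehicle, 80.6 in WT IUB288, 15.2 in KO vehicle and 53.4 in KO IUB288. Both IUB288 groups were above both vehicle groups, and the log2 fold change in the authors' deposited tables was 1.45 ± 0.43 in WT (q = 0.00163) and 1.82 ± 0.38 in KO (q = 0.00189). Plin2, the main droplet coat of hepatocytes, was at 276, 342, 249.98 and 271 FPKM and did not pass (q = 0.691 and 0.930 in the authors' deposited tables). Fitm1, an endoplasmic reticulum protein of droplet formation, was at 37.0, 21.2, 45.3 and 25.1 FPKM, with -0.80 ± 0.43 (q = 0.0876) in WT and -0.85 ± 0.38 (q = 0.0404) in KO in the authors' deposited tables. Its relative Fitm2 was not called, at 10.9, 7.59, 10.4 and 7.55 FPKM.

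Cidec, which encodes a protein that enlarges droplets by fusing them, was at 9.77 FPKM in WT vehicle, 1.70 in WT IUB288, 2.79 in KO vehicle and 2.29 in KO IUB288. WT vehicle was again apart from the rest. The authors' deposited tables give -2.53 ± 0.77 in WT (q = 0.00433) and -0.28 ± 1.08 in KO (q = 0.943). A second Cidec locus with the same mm10 coordinates (chromosome 6, from 113424636 to 113439460) was at 2.22 and 2.65 FPKM in WT vehicle and IUB288, for which the authors' deposited table gives 0.26 on the log2 scale (q = 0.919), so reads of the gene may be divided between these loci and the fold change is uncertain.

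Plin4 and Cidea, a perilipin and a CIDE protein best known from fat cells, showed their highest value in WT vehicle too. The locus of Plin4 also covers Hdgfl2, so its level may include reads of that gene. Plin4 was at 7.40, 1.78, 1.06 and 1.38 FPKM, and Cidea at 2.42, 0.549, 0.0311 and 0.152. Neither passed in WT, with -2.05 ± 1.12 (q = 0.357) for Plin4 and -2.14 ± 1.17 (q = 0.399) for Cidea in the authors' deposited table. Of 9 adipocyte markers, Lep and Retn were listed at 0 in all groups, and Adipoq and Plin1 were at most 0.0393 and 0.00916 FPKM. The summed adipocyte list was 33.5 FPKM in WT vehicle, 16.1 in WT IUB288, 15.9 in KO vehicle and 11.6 in KO IUB288. Most of that sum came from Fabp4, at 19.5, 8.33, 10.6 and 5.67 FPKM, and Lipe, at 9.25, 7.46, 4.60 and 5.54, both highest in WT vehicle. Cfd was listed at 4.43 FPKM in WT vehicle, 0.382 in KO vehicle and 0 under IUB288 in both genotypes. Of the 3 markers tested in WT, 1 was called lower (Fabp4, q = 0.0283 in the authors' deposited table), and none of the 2 tested in KO was called (1 at an unadjusted p under 0.05, 0 by normal p-values). The part of such cells in the Cidea, Cidec and Plin4 values was not tested.

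Of the 3 lipolysis genes, Pnpla3 fell and G0s2 rose in both genotypes. Pnpla3, a patatin-like phospholipase of droplets whose transcript is raised by SREBP-1c, was at 1.18 FPKM in WT vehicle, 0.195 in WT IUB288, 6.49 in KO vehicle and 0.667 in KO IUB288. Within each genotype the IUB288 group was the lower, and KO vehicle was the highest of all. The log2 fold change in the authors' deposited tables was -2.60 ± 0.75 in WT (q = 0.00163) and -3.28 ± 0.59 in KO (q = 0.00189). With a pseudocount of 1 FPKM the value in WT was -0.87 and in KO -2.17, since the levels are low.

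G0s2, which encodes the inhibitor of adipose triglyceride lipase, was at 75.0 FPKM in WT vehicle, 264 in WT IUB288, 56.4 in KO vehicle and 164 in KO IUB288. It rose by 1.81 ± 0.42 on the log2 scale in WT (q = 0.00163) and by 1.54 ± 0.37 in KO (q = 0.00189) in the authors' deposited tables. Pnpla2, the gene of that lipase, was at 37.3, 35.96, 18.6 and 26.8 FPKM and did not pass (q = 0.968 and 0.529 in the authors' deposited tables). Its locus also covers Cracr2b and Cd151, so its level may include reads of those genes.

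Of the uptake genes, Cd36, the fatty acid translocase, was at 30.0 FPKM in WT vehicle, 11.5 in WT IUB288, 20.9 in KO vehicle and 8.93 in KO IUB288. It fell by 1.38 ± 0.41 on the log2 scale in WT (q = 0.00163) and by 1.23 ± 0.37 in KO (q = 0.00189) in the authors' deposited tables. Lpl, lipoprotein lipase, was at 3.97, 3.44, 1.94 and 1.78 FPKM and was not called. Of 8 macrophage markers, cells that also express Cd36 and Lpl, 1 rose in WT (Marco) and none passed in KO (0 at an unadjusted p under 0.05, 0 by normal p-values). In WT all 8 had positive fold changes, 4 at an unadjusted p under 0.05. The median log2 fold change of these markers was 0.57 in WT and -0.28 in KO. Their summed level was 90.5 FPKM in WT vehicle, 143 in WT IUB288, 67.7 in KO vehicle and 56.5 in KO IUB288. Of 8 stellate cell markers 5 fell in WT and 1 in KO, with sums of 113, 59.6, 78.1 and 68.6 FPKM in the same order. The shares called lower over all loci tested were 3.4% in WT and 2.37% in KO. Of 7 endothelial markers 1 fell in WT (Lyve1), also by normal p-values. None of the 7 passed in KO (2 at an unadjusted p under 0.05, 0 by normal p-values). The endothelial sums were 76.0, 62.9, 60.2 and 48.1 FPKM in the same order. With normal p-values the Marco call in WT was lost, and 3 stellate cell markers were called in WT and 1 in KO. The part of these cells in the members' values was not tested.

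Whether the response to IUB288 differed between genotypes was tested for each gene as the KO effect minus the WT effect, on the log2 scale. None of the 35 members tested passed an adjusted p under 0.05, where 0.104% of 13521 loci did. The 5 smallest p-values belonged to Lpin1, Lpin2, Cidec, Scd1 and Plin4, all with a smaller decrease in KO or none. Lpin1 had a difference of 2.33 ± 0.65 (95% interval 1.05 to 3.61), with p = 0.000349 and an adjusted p of 0.249 in the normal test over all loci, where values per mouse that a permutation needs are not at hand. Lpin2 had 1.17 ± 0.56 (0.07 to 2.26), Cidec 2.24 ± 1.33 (-0.36 to 4.84), Scd1 1.53 ± 0.98 (-0.39 to 3.45) and Plin4 2.44 ± 1.60 (-0.71 to 5.58). Unadjusted p-values under 0.05 were found for 2 of the 35 members and for 1.08% of all loci. With errors of the right size, a share of all loci of about 0.05 or more would be found. The test is thus conservative with these errors, its intervals are wide, and a lack of calls does not show equal responses. Of the 9 genes called in both genotypes, Pparg had a difference of 1.06 ± 0.77 (95% interval -0.45 to 2.57), which is larger than its error. For the other genes the difference was smaller than its error, with 0.32 ± 0.57 for Srebf1, -0.45 ± 0.59 for Acss2, -0.68 ± 0.96 for Pnpla3 and 0.36 ± 0.57 for Plin5. Thrsp had -0.05 ± 0.60, Gpam -0.06 ± 0.61, Cd36 0.15 ± 0.55 and G0s2 -0.27 ± 0.56. For Thrsp the 95% interval ran from -1.23 to 1.13, which holds a difference of 2-fold in either direction. A gene called in WT and not in KO is therefore not shown to differ between them.

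**Figure D3:**
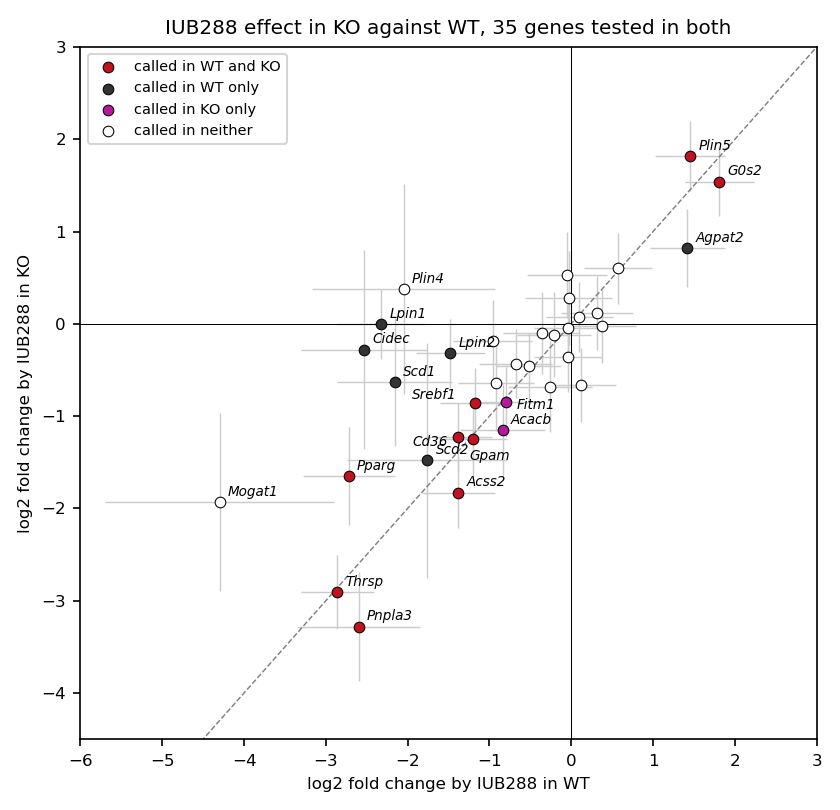
Log2 fold change by IUB288 in KO against that in WT for the 35 genes tested in both, with implied standard errors as grey bars and equality as a dashed line. Thrsp, Plin5 and G0s2 lie near the line, and Lpin1 (-2.32 in WT, 0.00 in KO), Cidec and Plin4 lie above it.

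Under IUB288 the authors compared KO with WT directly, and none of the 35 members tested passed. Over all loci 0.216% were called lower and 0.323% higher in KO. At an unadjusted p under 0.05 there were 5 members, against 4.12% of all loci, and normal p-values from the test statistic called none. The members' median log2 fold change was 0.02, against -0.01 over all loci. Among the members, the smallest q-value in the authors' deposited table was that of Scd1, at 1.22 ± 0.57 (q = 0.232). The other four were Pnpla3 at 1.82 ± 0.81 (q = 0.303), Lpl at -0.91 ± 0.47 (q = 0.459), G0s2 at -0.65 ± 0.41 (q = 0.891) and Fasn at 0.87 ± 0.53 (q = 0.919) in the same authors' deposited table. This table holds the same IUB288 mice as the treatment tables. Of 8 macrophage markers in that comparison, 3 were called lower in KO, all 8 had negative fold changes and p-values under 0.05, and the median log2 fold change was -1.19 in the authors' deposited table. Clec4f was at -1.21, Marco at -2.10 and Cd5l at -1.40, and with normal p-values Marco alone was called. Their summed level in that table was 133 FPKM in WT and 53.7 in KO. The part of these cells in the Lpl and other members' values was not tested.

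Under vehicle, KO and WT stand in tables scaled separately, so their levels are set side by side with no test. Over the 10388 loci at 1 FPKM or more in both vehicle groups the median ratio of KO to WT was 1.01, and 2.54% lay at least 2-fold apart. Of the 35 members at that level 7 did, and Cidea, at 0.0311 FPKM in KO vehicle, was also further apart. Cidea, Plin4, Lpin1, Cidec, Lpin2, Lpl and Pnpla2 were higher in WT, Lpin1 by 4.64 times, Cidec by 3.50 times and Lpin2 by 2.12 times. Pnpla3 was higher in KO, by 5.49 times. Under IUB288 the ratio of KO to WT in the authors' deposited table was 1.10 for Lpin1, 1.08 for Lpin2, 1.38 for Cidec, 0.786 for Plin4, 0.531 for Lpl, 0.761 for Pnpla2, 0.284 for Cidea and 3.52 for Pnpla3. Under vehicle the ratio of KO to WT was 0.488 for Lpl and 0.498 for Pnpla2. For Thrsp, Srebf1 and Acss2 the ratio of WT to KO under vehicle was 1.17, 1.08 and 0.934.

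**Figure D4:**
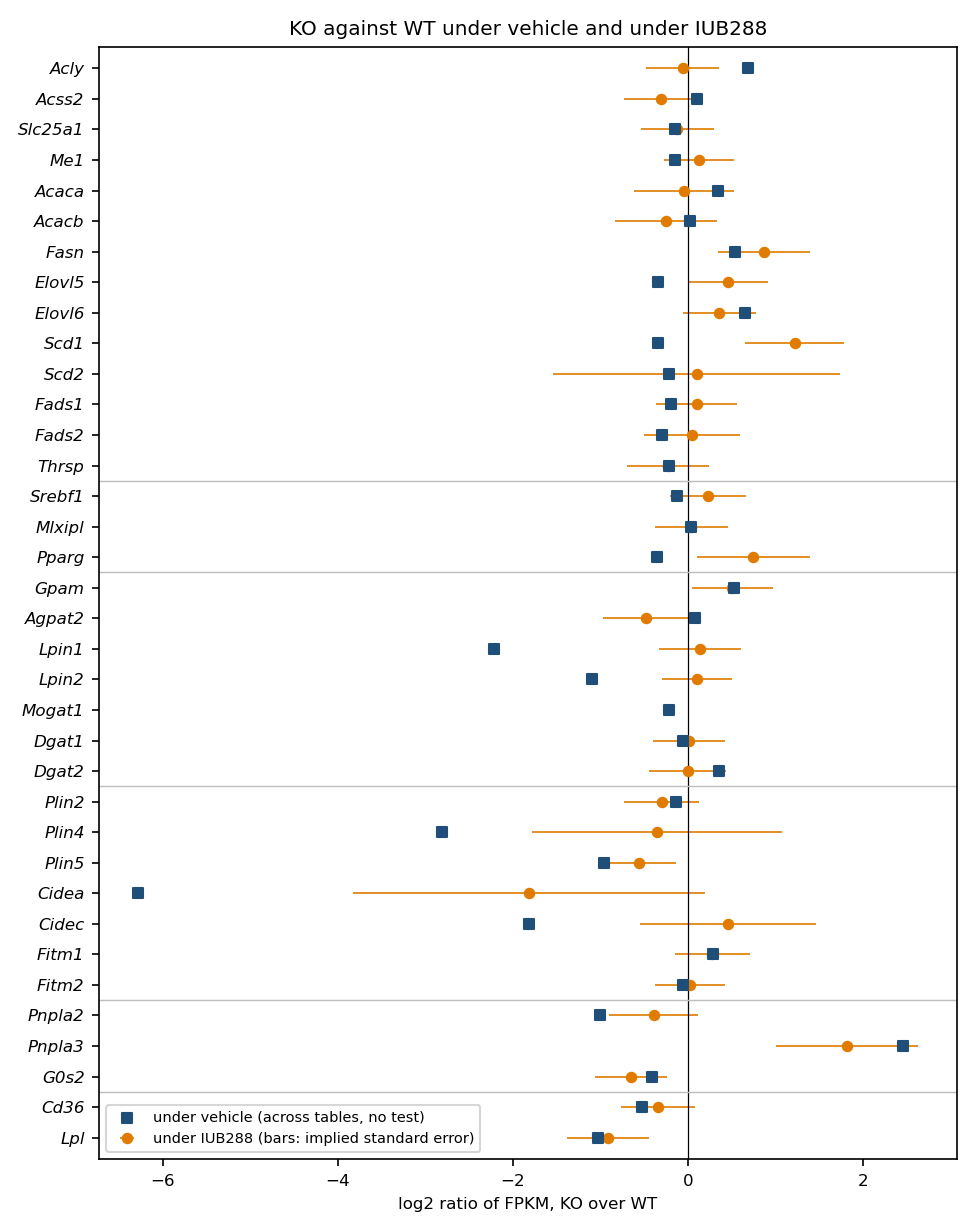
Log2 ratio of KO over WT for each gene under vehicle (blue squares, from tables scaled separately, no test) and under IUB288 (orange circles with implied standard errors). For Lpin1 the square is at -2.21 and the circle at 0.14, whereas for Pnpla3 both are to the right, at 2.46 and 1.82.

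Further genes of the same pathways, 5 lists in all, were read beside the members. Over all loci tested the shares called were 3.4% lower and 3.96% higher in WT, and 2.37% lower and 3.13% higher in KO. In lists this small a count of 0 or 1 is near these shares and describes single genes only. Of 16 genes that control lipogenic transcription, which include the SREBP partners Scap and Insig1 and the nuclear receptor LXRα, 1 fell in WT and none passed in KO (2 at an unadjusted p under 0.05, 0 by normal p-values). The gene that fell, Cebpb, was at 61.6 FPKM in WT vehicle, 30.5 in WT IUB288, 32.0 in KO vehicle and 32.8 in KO IUB288, with WT vehicle apart as for Lpin1. Its log2 fold change was -1.02 ± 0.40 (q = 0.00163) in WT and 0.03 ± 0.36 (q = 0.981) in KO in the authors' deposited tables, and with normal p-values the WT call was lost (q = 0.236). None of the 7 tested genes of NADPH supply, the reducing power of the pathway, passed in either genotype (none at an unadjusted p under 0.05 nor by normal p-values). Of 13 tested genes of further elongation, desaturation and fatty acid activation, 1 fell and 1 rose in each genotype. Elovl3, an elongase of saturated chains, was at 33.0, 13.6, 93.6 and 44.4 FPKM and fell by 1.28 ± 0.48 on the log2 scale in WT (q = 0.0104) and by 1.08 ± 0.45 in KO (q = 0.0367) in the authors' deposited tables. It was also higher in KO than in WT under IUB288 (1.73 ± 0.56, q = 0.0208, the authors' deposited table). With normal p-values all 3 calls of Elovl3 were lost, at q-values of 0.184, 0.370 and 0.486. The rising gene was Acsl4, an acyl-CoA synthetase for arachidonate, at 9.10, 24.5, 12.9 and 29.1 FPKM. Its call in WT held with normal p-values (q = 0.0154) and that in KO was lost (q = 0.0740).

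Agpat6, which encodes a glycerol-3-phosphate acyltransferase of the endoplasmic reticulum, was the gene that rose among 9 (WT) and 7 (KO) further triglyceride synthesis genes tested. It was at 36.05 FPKM in WT vehicle, 81.8 in WT IUB288, 27.1 in KO vehicle and 70.3 in KO IUB288, opposite in direction to Gpam, the mitochondrial enzyme of that step. The authors' deposited tables give 1.18 ± 0.41 (q = 0.00163) in WT and 1.38 ± 0.39 (q = 0.00189) in KO. With normal p-values the WT call was lost (q = 0.109) and the KO call held (q = 0.0208).

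Of 22 further genes of droplets, lipolysis and fatty acid transport, 6 fell and 1 rose in WT, and 4 fell and 1 rose in KO. Normal p-values called 5 in WT (Ces1d, Ces1g, Fabp2, Fabp5 and Vldlr) and 2 in KO (Ces1g and Fabp5). Ces1g, a carboxylesterase, was at 50.8, 3.73, 32.4 and 2.75 FPKM in WT vehicle, WT IUB288, KO vehicle and KO IUB288, with log2 fold changes of -3.77 ± 0.44 (q = 0.00163) and -3.56 ± 0.49 (q = 0.00189) in the authors' deposited tables. Fabp5 and Fabp2, which encode fatty acid binding proteins, fell in both genotypes. Fabp5 was at 12.8, 2.43, 40.0 and 5.35 FPKM, and Fabp2 at 137, 30.7, 105 and 45.1. Fabp1 and Fabp4 of that family passed in WT (q = 0.0214 and 0.0283) and not in KO (q = 0.0777 and 0.218) in the authors' deposited tables. Ces1d, a triglyceride hydrolase and a close paralog of Ces1g, fell in WT (-1.67 ± 0.40, q = 0.00163) in the authors' deposited tables. In KO it was at -0.79 ± 0.38 and did not pass (q = 0.0607, the authors' deposited table). It was higher in KO than in WT under IUB288 (1.32 ± 0.41, q = 0.0118, the authors' deposited table). The call between genotypes was lost with normal p-values (q = 0.460). Lipc, hepatic lipase, passed in KO (-1.03 ± 0.37, q = 0.00189) and not in WT (-0.55 ± 0.41, q = 0.315) in the authors' deposited tables. The KO minus WT difference passed for neither Ces1d nor Lipc. Vldlr, the VLDL receptor, rose in both genotypes from low levels, from 0.746 to 2.42 FPKM in WT and from 0.522 to 1.55 in KO.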

How the data were processed

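Liver RNA was extracted with TRIzol and sequenced from TruSeq RNA libraries, per the labels' protocols. The submitters' processing notes name Bowtie2 2.2.3 and TopHat2 2.0.12, Cufflinks 2.2.1, a Cuffdiff of unstated version, Trim Galore 0.4.0 and bcl2fastq 1.8.4, with the builds hg19 and mm10. None of the sources used here states whether counting used strand. The authors deposited 3 tables, 1 per comparison, with a pooled FPKM value per group. Beside these, the authors deposited for every locus a log2 fold change, a p-value with its q-value, and a test statistic, which is a score. No per-sample column was left unmapped (0). Replicates are mice by their labels.

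Each table is scaled on its own: the median ratio of the same group between tables was 1.05 (KO IUB288) and 1.08 (WT IUB288), so levels are tested only within a table. Levels under IUB288 are those of the treatment tables, except the macrophage sums given with the comparison of KO with WT under IUB288. The members and all lists were chosen with earlier results of these data known. Calls are the authors' (status OK, q under 0.05, smallest p-value 5e-05), over all loci. The standard error is the log2 fold change over the test statistic, which at the members' median is 1.39 (WT), 1.41 (KO) and 1.42 (KO against WT) times the error that the p-value implies. The KO minus WT difference was tested with these errors as a normal test, Benjamini-Hochberg adjusted over 13521 loci. The procedure was run on simulated data drawn with these same errors, which cannot check whether the errors have the right size. All members are reported, in full where called or among the 5 smallest p-values of the difference; of further lists, up to 3 called genes with the largest change are named, and Fabp1, Fabp4 and Lipc were named after their values were seen. Locus coordinates of all 37 member loci overlapped the RefSeq gene of GRCm38.p6. Promoter windows matched 29 of 36 members by symbol. Alternatives were a stricter q-value, normal p-values, an FPKM minimum of 1, a minimum log2 fold change of 1, another locus of a symbol, centring, pseudocounts of 1 and 0.1, and other errors. Python 3.11.15, numpy 2.4.6, pandas 2.3.3, scipy 1.17.1 and matplotlib 3.10.9 were used.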

Additional observations from a re-analysis of the deposited data

How the results depend on the processing

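With normal p-values from the test statistic, the members called lower were 7 in WT (12 by the authors' q-values) and 4 in KO (9), and with fold changes centred on all loci, tested the same way, 7 and 4. Normal p-values were also read for the further lists after the first results were seen. Normal p-values come from the same test statistics and rest on the larger errors, so the loss of calls follows from the calculation. Why the authors' p-values imply smaller errors was not tested. The median log2 fold changes of the members and the counts of 0 for KO against WT under IUB288 and for the difference kept their direction and side of the threshold under the alternatives run. The members called higher went from 3 to 2 in WT, without Agpat2, with normal p-values and with centred ones, and were 2 in KO throughout. Over 26 called results of single members, 157 alternative values were computed: 125 kept direction and call, 28 kept direction without the call, 3 moved in size (Pnpla3 in WT and KO and Pparg in WT, with a pseudocount of 1), and 1 reversed. The reversal is Cidec in WT, at 0.26 with the locus of lower FPKM. With the error implied by the authors' p-value, the adjusted p of the Lpin1 difference was 0.116, and with an FPKM minimum of 1 it was 0.212. Leaving out single mice was not run, since values are pooled. Each label names a different mouse, so the groups hold no pairs and no paired analysis was run. Depth is unknown, so the precision of genes under 1 FPKM, such as Mogat1 and Cidea, rests on the authors' errors alone.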
